A study of Mus musculus with 20 samples.

Results

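Mitochondrial ribosomal protein genes were followed from prophase I to metaphase I in mouse oocytes, on ribosomes and in total RNA. A gene belonged to the group if its symbol in either of the deposited tables began with Mrpl or Mrps and a digit. That gave 50 of the 8114 genes in the tables, of which 44 of 7543 were listed in the ribosome-bound table, 48 of 7917 in the total RNA table and 42 of 7346 in both. Mrpl11 and Mrpl15 were listed only on ribosomes, and Mrps15, Mrpl1, Mrpl22, Mrpl28, Mrpl51 and Mrpl55 only in total RNA. All 50 are annotated as protein coding.

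All libraries came from C57BL/6 females of the Zp3-Cre+ RiboTag line, 3 weeks old, so both kinds of RNA and every time carry the same alleles. RiboTag puts an HA tag on a ribosomal protein in cells that express Cre, here driven by the oocyte promoter Zp3, and tagged ribosomes are then pulled down from the lysate with their mRNA. The mice received 5 IU of PMSG, a gonadotrophin. After stripping of the cumulus cells the oocytes were held in prophase I with 1 µM cilostamide, a phosphodiesterase inhibitor, and moved to medium without it. Oocytes at 0 h were in prophase I. At 2 h they had reached early, at 4 h mid and at 6 h late prometaphase I, and by 8 h metaphase I. Each time was sampled with 2 libraries of ribosome-bound mRNA and 2 of total RNA, from 200 oocytes a sample. The labels do not say that the 2 libraries of a group came from separate animals or cultures, so the p-values measure only the spread between these libraries.

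Mitochondria hold their own ribosome, which makes the membrane-embedded core subunits of oxidative phosphorylation from mitochondrial mRNA. Its rRNA comes from mitochondrial DNA, but its proteins are encoded in the nucleus, made on cytosolic ribosomes and imported, so the transcripts studied here are cytosolic mRNAs. Mrpl genes encode the large subunit, which forms peptide bonds, and Mrps genes the small subunit, which reads the mRNA. Many of the proteins descend from bacterial ribosomal proteins, and others are found only in mitochondria. A fully grown oocyte is transcriptionally silent and its mitochondria are inherited by the embryo.

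In a maternal mRNA the end of the 3′ UTR holds the polyadenylation signal (AATAAA or ATTAAA) and, in some mRNAs, the cytoplasmic polyadenylation element, searched here as TTTTAT or TTTTAAT on the sense strand. In the last 100 bases of the annotated 3′ UTR, 5 of the 44 ribosome-bound members held the cytoplasmic element (11.4%), against 1489 of 6936 genes of the table with a 3′ UTR that long (21.5%). A polyadenylation signal stood there in 32 of 44 (72.7%), against 82.0% of those genes. The 5 sites with the cytoplasmic element are shown because it is the best known 3′ UTR sequence for translational control in oocytes. Capitals mark the motif, and letters are given 5′ to 3′ from the transcript sequences of GENCODE vM21 (mm10).
Mrps2, chr2:28471132-28471160, plus strand: gaattgtactaTTTTAATatatgtttaca
Mrpl11, chr19:4966970-4966997, plus strand: acaattaaaacTTTTATtacgtgtataa
Mrpl44, chr1:79781350-79781377, plus strand: agctagatgtaTTTTATtccctccagct
Mrpl50, chr4:49512648-49512675, minus strand: atgaaattcacTTTTATgtatcacttta
Mrps14, chr1:160202068-160202095, plus strand: cattcccaggtTTTTATgttctatgcat
For 5 genes whose changes are described below, the polyadenylation signal nearest the annotated 3′ end is shown in capitals.
Mrpl3, chr9:105079846-105079873, plus strand: agatgaatagtAATAAAtggcttttgca
Mrpl34, chr8:71465714-71465741, plus strand: attaccgacttAATAAAtattcacgttt
Mrps22, chr9:98588738-98588765, minus strand: aaaatcttgggATTAAAaggtacttact
Mrps25, chr6:92169571-92169598, minus strand: tctctacagagATTAAAatagactcgaa
Mrpl57, chr14:57829269-57829296, plus strand: agtgaaagaagAATAAAgtatgatccag
These 5 signals lie at different distances from the annotated end. The Mrpl34 signal begins 23 bases from it and the Mrps25 signal 63 bases. A match is a description of the annotated sequence, and no binding or tail length was measured.

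The values are CPM (reads relative to the library's total) scaled by a factor for each library (scaled CPM below). Summed values ran from 968768 to 1052767 a library, and the step between neighbouring values gave 27571236 to 51714900 reads a library, so a value of 10 stood for 282 to 533 reads. All 12 oocyte markers checked were listed on ribosomes and 11 of 12 in total RNA, no cumulus marker of 6 was listed, 2 of 8 markers of blood, stroma and endothelium were (summed values 106.3 to 189.5 on ribosomes), and 4 (ribosome-bound) or 6 (total RNA) of 10 granulosa markers were. The summed granulosa markers on ribosomes were 198.6 to 207.1 at 0 h and 524.1 to 529.1 at 8 h, while the summed oocyte markers were 37619 to 44897 and 19625 to 22516. That granulosa sum holds only Fshr, Cyp19a1, Nr5a2 and Serpine2. Which of them was higher at 8 h was not examined, so the sum is no measure of the number of granulosa cells. In total RNA the granulosa sums were 324.4 to 388.9 at 0 h and 428.2 to 549.8 at 8 h, and the oocyte sums overlapped between the times (14142 to 14689 and 14206 to 15364). The part of these shifts in the results below was not tested. In bulk RNA a lower value from fewer cells of a type cannot be told apart from less RNA per cell.

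At 0 h the members were moderately expressed. Their median value was 21.9 and 22.2 in the 2 ribosome-bound libraries and 24.5 and 23.9 in the total RNA libraries. Compared per kilobase of transcript, Mrps22, a small-subunit protein found only in mitochondria, had the highest total RNA level of the members, 87.5 scaled CPM per kilobase (mean of 2 libraries). It was followed by Mrpl34 (79.9), a small large-subunit protein of bacterial type, Mrpl18 (53.4), which belongs to the central protuberance, Mrps31 (51.2) and Mrpl4 (50.2). The neighbours Mrpl18, Mrps31 and Mrpl4 were within the spread of their libraries, since the Mrps31 values were 87.1 and 68.0 before division by length. Exons of Mrpl18 overlap those of Tcp1, so reads of these genes could be shared.

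The 44 members together made up 0.133% and 0.130% of the summed value of the 0 h ribosome-bound libraries. The share was 0.124% and 0.129% at 2 h, 0.120% and 0.118% at 4 h, 0.096% and 0.095% at 6 h, and 0.086% and 0.076% at 8 h. At each time both libraries lay below both libraries of the time before. The 48 members in total RNA held 0.144% and 0.138% at 0 h, between 0.130% and 0.155% from 2 to 6 h, and 0.115% and 0.100% at 8 h. In total RNA only the 8 h libraries lay below all the others.

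**Figure D1:**
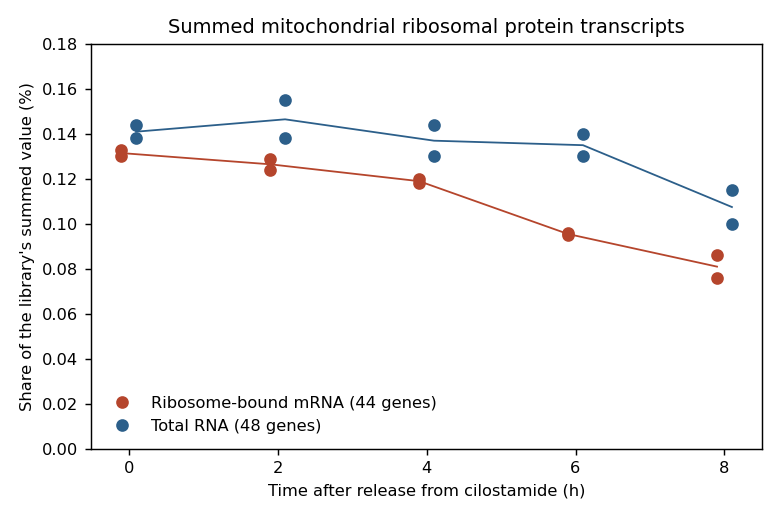
Summed value of the mitochondrial ribosomal protein transcripts as a percent of the library's summed value (vertical axis) against time in hours, with 1 point a library and lines through the mean of 2 libraries. The ribosome-bound share goes from 0.133% and 0.130% at 0 h to 0.086% and 0.076% at 8 h, and the total RNA share is lowest at 8 h (0.115% and 0.100%).

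On ribosomes the first 2 h brought no call. At a Benjamini-Hochberg adjusted p of 0.05 in limma, 0 of 44 members were lower and 0 higher at 2 h than at 0 h, where 0.742% and 0.729% of all genes were called. At an unadjusted p of 0.05, 0 members were lower and 2 higher, against 7.97% and 9.20% of all genes. The median log2 change was -0.07, and 0.01 over all genes. All log2 changes are of the value plus 1 and understate the change of low genes.

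At 4 h, 1 member of 44 had fallen and 3 had risen, against 6.56% and 9.16% of all genes. These 4 were named after their values were seen. Mrps27, an RNA-binding small-subunit protein, was 50.2 and 41.3 at 0 h and 13.5 and 30.9 at 4 h (log2 change -1.11 ± 0.35 SE). The small-subunit protein Mrps31 went from 21.5 and 37.9 to 91.9 and 58.7 (1.33 ± 0.29). The large-subunit protein Mrpl50 went from 7.45 and 5.74 to 21.7 and 17.3 (1.43 ± 0.43). Mrps5, a small-subunit protein with a bacterial counterpart, went from 23.6 and 25.4 to 71.7 and 36.4 (1.03 ± 0.34). In each of the 4 the groups did not overlap, but this held for 52.3% of the members and 53.1% of all genes. The 4 h libraries differed widely for Mrps27 and Mrps5. The calls rest on single libraries. Leaving out replicate 1 of 0 h gave 0 lower and 0 higher, and leaving out replicate 2 of 0 h gave 0 lower and 1 higher. Leaving out replicate 1 of 4 h gave 0 higher, and leaving out replicate 2 of 4 h gave 3 lower.

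At 6 h, 11 of 44 members had fallen and 2 had risen, against 13.3% and 14.6% of all genes, so the lower calls were a larger share of the members and the higher calls a smaller one. The median change was -0.67, against -0.03 over all genes, and -0.43 against -0.05 with a correction for the length and GC content of transcripts. All 11 were called lower at 8 h too, and the 2 higher, Mrps31 and Mrpl3, were called higher at 8 h too. Calls at 4 h were less stable. Mrps27 was not called lower at 6 h, and Mrps5 and Mrpl50 were not called higher at 6 h or 8 h. The 6 h and 8 h comparisons share their 0 h libraries. The lower count was 6 or 5 when replicate 1 or 2 of 0 h was left out, and 4 or 7 when replicate 1 or 2 of 6 h was left out. The higher count was 1 without either 6 h library.

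At 8 h, in metaphase I, 24 of 44 members were lower on ribosomes than in prophase I, 3 were higher and 17 were not called. Of all genes 21.8% were lower and 20.2% higher. The median log2 change of the members was -1.09, against -0.06 over all genes. Members listed for high early values, possibly Mrpl11, are exposed to falls, and their part in the lower count was not tested. The values of 36 of 44 members (81.8%) did not overlap between 0 and 8 h, against 69.4% of all genes. The lower count was 14 without 8 h replicate 2 and up to 21 when another of the 4 libraries was left out. Of the 24 calls, 13 held in each of these 4 fits, while Mrps27 and Mrps7 held in none. Between 6 and 8 h no member was called in limma (0.597% of all genes lower, 0.0928% higher), with 6 lower and 2 higher at an unadjusted p of 0.05 (8.43% and 4.61% of all genes). The log2 change from 6 to 8 h was below 0 in 36 of 44 members, with a median of -0.33 against -0.01 over all genes.

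**Figure D2:**
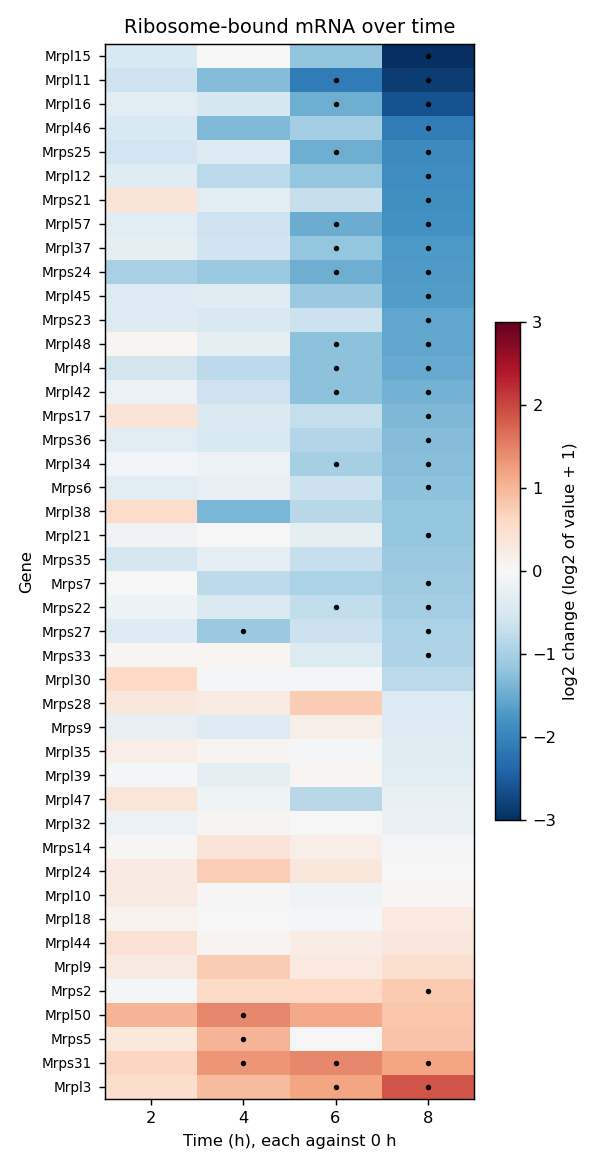
Ribosome-bound log2 change from 0 h (colour, blue lower and red higher) at 2, 4, 6 and 8 h (columns) for the 44 genes of the ribosome-bound table (rows, ordered by the 8 h change). A black dot marks an adjusted p under 0.05. There is no dot at 2 h, 4 at 4 h, 13 at 6 h and 27 at 8 h.

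Only part of each role group was listed on ribosomes. In the large subunit it was 16 of 30 genes of bacterial type and, with Ict1, 11 of 21 of the mitochondrial type. In the small subunit it was 10 of 16 and 7 of 10. Among large-subunit proteins with a bacterial counterpart, 7 of 16 fell and 1 rose (median log2 change -0.58). Of all genes 21.8% were lower and 20.2% higher at 8 h (median -0.06), which is the background for each role group below. Mrpl16 (chromosome 19, 11770391-11774960, mm10), which sits by the peptidyl transferase centre, was 40.8 and 38.4 at 0 h and 5.97 and 5.26 at 8 h. Its 4 values are far apart between the times and close within them. The log2 change was -2.62 ± 0.33 (adjusted p 8.94e-06). The intermediate libraries lay between, at 29.9 and 31.7, 28.8 and 25.4, and 16.3 and 11.5 at 2, 4 and 6 h.

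Several of these proteins build the stalk and its base, where translation factors dock. Mrpl12 (chromosome 11, 120484613-120489065), the stalk protein, was 18.35 and 12.02 at 0 h and 4.28 and 2.55 at 8 h (-1.87 ± 0.47, adjusted p 0.00423). Mrpl11 (chromosome 19, 4962147-4966999), at the stalk base, was 11.6 and 23.9 at 0 h and 1.97 and 1.08 at 8 h (-2.84 ± 0.56, adjusted p 5.93e-04). For both genes the 8 h libraries lie below the 0 h libraries, although the 0 h libraries differ from each other. Mrpl11 was 8.22 and 13.3 at 2 h, 4.72 and 8.01 at 4 h and 2.74 and 3.59 at 6 h. If it was listed for its high early values, it was exposed to such a fall. This was not tested, so its p-value may overstate the change.

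Mrpl15 (chromosome 1, 4773206-4785739) had the most negative change of the 44. It was 10.6 and 14.3 at 0 h and 1.08 and 0.22 at 8 h, the latter standing for 46 and 7 reads (-3.07 ± 0.65, adjusted p 0.00118). Its 6 h libraries were 11.5 and 1.76 and so spanned most of that range. Mrpl4 (chromosome 9, 21002738-21008839), a protein of the exit tunnel, was 111 and 79.3 at 0 h and 37.4 and 28.0 at 8 h (-1.51 ± 0.31, adjusted p 9.38e-04). Mrpl34 (chromosome 8, 71464959-71465747) was 50.7 and 57.9 at 0 h, 23.6 and 30.4 at 6 h and 24.4 and 19.2 at 8 h (-1.28 ± 0.28, adjusted p 0.00139). Corrected for the length and GC content of transcripts, its change was -0.29 and no longer called.

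Large-subunit proteins found only in mitochondria fell in 6 of 10 cases and rose in none (0 also at an unadjusted p of 0.05 in limma), with a median of -1.48. Over all genes the shares were 21.8% and 20.2% and the median -0.06. Mrpl46 and Mrpl48 belong to the central protuberance. Mrpl46 (chromosome 7, 78775236-78783531) was 22.4 and 18.2 at 0 h and 6.91 and 2.09 at 8 h (-2.10 ± 0.54, adjusted p 0.00461), and -1.42 and not called without 8 h replicate 2. Mrpl48 (chromosome 7, 100545751-100608301) was 28.3 and 25.8 at 0 h and 10.6 and 6.86 at 8 h (-1.55 ± 0.38, adjusted p 0.00328). In neither gene did the groups overlap, which also held for 69.4% of all genes. Mrpl57 (chromosome 14, 57826234-57829296) was 16.2 and 21.1 at 0 h and 5.41 and 3.81 at 8 h (-1.81 ± 0.43, adjusted p 0.00260). Exons of Mrpl46 overlap Mrps11 and those of Mrpl48 overlap Rab6a, and Mrpl48 has a pseudogene. The sources used here do not say whether strand was used in counting, so their reads could be shared.

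In the small subunit 5 of 10 proteins with a bacterial counterpart fell and 1 rose (median -0.73), and 5 of 7 of the mitochondrial type fell and 1 rose (median -1.01). Mrps22 (chromosome 9, 98588730-98601660) had the highest member values of the ribosome-bound 0 h libraries. They were 111 and 119 at 0 h, 61.7 and 75.9 at 6 h and 60.1 and 53.0 at 8 h (-1.01 ± 0.20, adjusted p 5.45e-04). Mrps25 (chromosome 6, 92169525-92184033), of the mitochondrial type, was 59.9 and 76.2 at 0 h, 24.2 and 23.2 at 6 h and 11.5 and 25.7 at 8 h (-1.91 ± 0.33, adjusted p 2.00e-04). Most of its difference was present at 6 h, and its exons overlap Nr2c2.

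Mrps21 (chromosome 3, 95862634-95871519), counterpart of a bacterial protein that takes part in initiation, was 12.7 and 11.2 at 0 h and 2.74 and 2.49 at 8 h (-1.84 ± 0.47, adjusted p 0.00482). With the length and GC correction it was -0.88 and not called. Mrps17 (chromosome 5, 129715497-129722556) was 18.8 and 22.8 at 0 h and 9.27 and 6.18 at 8 h (-1.34 ± 0.41, adjusted p 0.0149). That call was lost without 0 h replicate 2 (-1.21) and without 8 h replicate 2 (-1.08). Mrps7 (chromosome 11, 115603925-115608036), which organises the head of the small subunit and overlaps exons of Gga3 and Mif4gd, was 21.9 and 20.3 at 0 h and 8.97 and 10.3 at 8 h (-1.06 ± 0.37, adjusted p 0.0296). It ranged from -0.97 to -1.15 and was not called when any 1 of the 4 libraries was left out, and it was -0.60 and not called with the length and GC correction.

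Mrps36 (chromosome 13, 100735955-100744659) carries the name of the family, but its protein is a subunit of the 2-oxoglutarate dehydrogenase complex. It was 21.4 and 19.5 at 0 h and 9.01 and 6.46 at 8 h (-1.31 ± 0.38, adjusted p 0.0105), and -1.10 and not called without 8 h replicate 2. It has 3 annotated pseudogenes, with which reads could be shared. Of the fixed set of genes to be described whatever their values, Mrps12, Mrps16, Mrps18a, Mrps18b, Mrps18c, Mrps34 and Mrpl58 were not analysed here under those symbols. Ict1, the older symbol of Mrpl58 and a release factor built into the large subunit, was 16.1 ± 1.09 at 0 h and 6.28 ± 0.750 at 8 h on ribosomes (SD, n = 2; log2 change -1.24, adjusted p 0.0332).

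**Figure D3:**
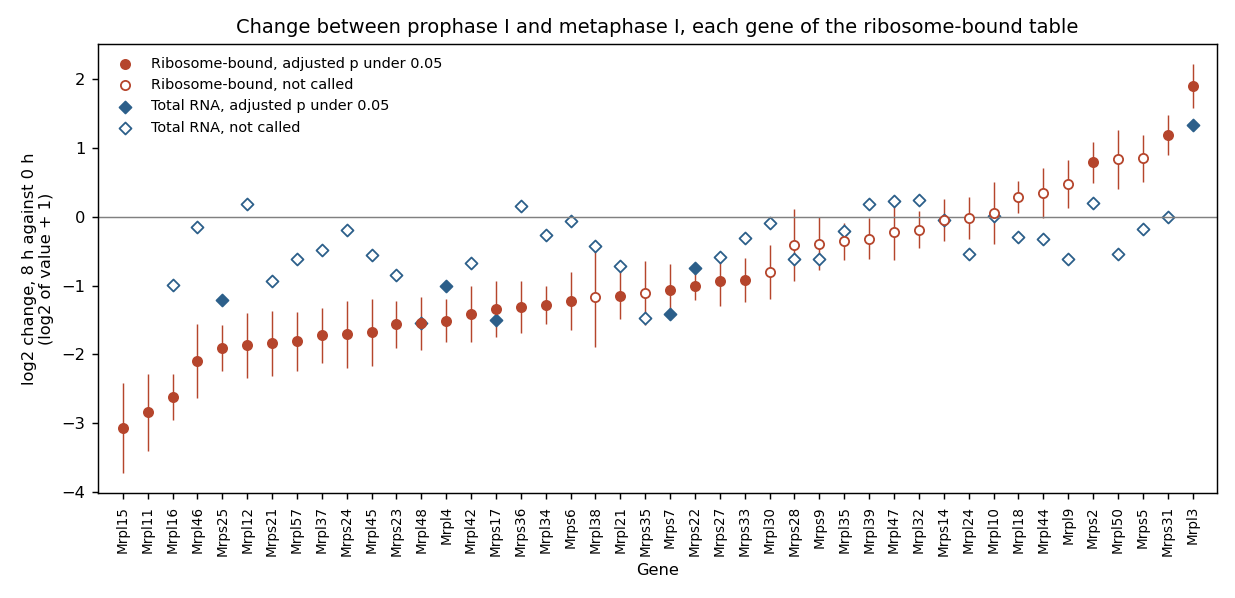
log2 change from 0 to 8 h (vertical axis) for each gene of the ribosome-bound table (horizontal axis, ordered by that change), with circles and standard error bars for ribosome-bound mRNA and diamonds for total RNA. Filled symbols have an adjusted p under 0.05, which holds for 24 lower and 3 higher circles and for 6 lower and 1 higher diamonds.

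The 3 members higher on ribosomes at 8 h were Mrpl3, Mrps31 and Mrps2. Mrpl3 (chromosome 9, 105053239-105079888), a large-subunit protein beside the peptidyl transferase centre, was 13.5 and 12.1 at 0 h, 29.1 and 22.6 at 4 h, 30.3 and 30.3 at 6 h and 46.1 and 54.4 at 8 h. Both libraries of 4 h and later lie above both of 0 h. The change at 8 h was 1.89 ± 0.32 (adjusted p 1.58e-04).

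Mrps31 (chromosome 8, 22411361-22429665) was 21.5 and 37.9 at 0 h and 38.8 and 53.1 at 2 h, then between 58.7 and 91.9 in the 6 later libraries, with 74.6 and 59.2 at 8 h (1.19 ± 0.29, adjusted p 0.00313). Its higher level was present by 4 h, with no call between 6 and 8 h. Mrps2 (chromosome 2, 28468066-28471178), a small-subunit protein with a bacterial counterpart, was 21.8 and 22.1 at 0 h and 45.9 and 32.7 at 8 h (0.79 ± 0.30, adjusted p 0.0422). The Mrps2 call was lost without 0 h replicate 1 (0.78), 0 h replicate 2 (0.80) or 8 h replicate 1 (0.55). Mrps5, next by adjusted p, was 23.6 and 25.4 at 0 h and 38.5 and 52.2 at 8 h (0.85 ± 0.34) and just missed the threshold (adjusted p 0.0508).

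Of the genes whose cytoplasmic element is printed above, Mrps2 rose and Mrpl11 fell at 8 h. Mrpl44 (0.34), Mrpl50 (0.83) and Mrps14 (-0.05) were not called. The cytoplasmic element was thus present in 1 of the 24 lower members, 1 of the 3 higher and 3 of the 17 not called. A polyadenylation signal was found in 18 of 24, 1 of 3 and 13 of 17. With 3 higher members no comparison of these shares was made.

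In total RNA the members were called at 8 h only. At 2, 4 and 6 h, 0 of 48 were lower and 0 higher in limma. The same calls covered 0%, 0% and 0.0253% of all genes on the lower side and 0%, 0% and 0.177% on the higher side. At an unadjusted p of 0.05 the members gave 0, 0 and 2 lower and none higher, where 119, 152 and 324 of all 7917 genes were lower and 107, 195 and 289 higher. At 8 h, 6 of 48 were lower and 1 higher, against 3.02% and 0.947% of all genes, with a median of -0.49 against 0.01 over all genes (-0.32 against -0.02 with the length and GC correction). By role the lower and higher calls were 1 and 1 of 18 large-subunit proteins of bacterial type, 1 and 0 of 11 of the mitochondrial type, 2 and 0 of 11 small-subunit proteins of bacterial type and 2 and 0 of 7 of the mitochondrial type. The 6 lower members are all among the 24 that were lower on ribosomes.

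Mrpl48 in total RNA was 55.8 and 50.2 at 0 h, 23.2 and 25.4 at 6 h and 18.5 and 16.7 at 8 h (-1.54 ± 0.30, adjusted p 0.00541). Mrps17 was 30.2 and 27.3 at 0 h and 8.16 and 11.1 at 8 h (-1.50 ± 0.34, adjusted p 0.0148). Mrps25 was 41.5 and 47.4 at 0 h, 45.6 and 43.9 at 6 h and 18.8 and 18.3 at 8 h (-1.21 ± 0.25, adjusted p 0.00765). The total RNA of Mrps25 was thus at its starting level at 6 h, when its ribosome-bound value was already low. Mrps7 was 37.6 and 29.6 at 0 h and 8.72 and 16.2 at 8 h (-1.41 ± 0.33, adjusted p 0.0187). Mrpl4 was 65.3 and 64.0 at 0 h and 29.6 and 34.1 at 8 h (2.01-fold lower, log2 SE 0.23, adjusted p 0.0149). In none of these 5 genes did the groups overlap, which also held for 47.9% of all genes.

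Mrps22 in total RNA was 113 and 96.4 at 0 h, between 88.2 and 101 from 2 to 6 h and 62.5 and 60.5 at 8 h (-0.75 ± 0.18, adjusted p 0.0223). Mrpl3 was the 1 higher member, at 24.7 and 24.0 at 0 h and 97.7 and 39.9 at 8 h (1.33 ± 0.35, adjusted p 0.0345). The 8 h libraries of Mrpl3 stand far apart, and the change was 0.69 and not called without 8 h replicate 1. The total RNA calls rest on few libraries. Leaving out replicate 1 of 0 h gave 0 lower calls, replicate 2 of 0 h gave 1 and replicate 1 of 8 h gave 2, and in these 3 fits the higher count was 0. At 8 h, 10 of 48 members differed over 2-fold between the total RNA libraries, against 7.97% of all genes.

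The 6 members listed only in total RNA were not called at 8 h. The large-subunit genes Mrpl1 (8.32 and 24.9 at 0 h, 6.72 and 14.9 at 8 h), Mrpl22 (11.9 and 10.2, then 8.93 and 6.62) and Mrpl28 (7.46 and 10.6, then 7.86 and 1.69) had log2 changes of -0.49, -0.46 and -1.02. Mrpl51 (6.36 and 10.9, then 4.85 and 6.69) and Mrpl55 (16.99 and 18.40, then 11.6 and 11.3) changed by -0.48 and -0.58 without a call. Mrps15, of the small subunit, was 13.5 and 14.4 at 0 h and 23.4 and 11.7 at 8 h. For Mrpl22 and Mrpl55 the libraries of the 2 times did not overlap, and for the other 4 they did. Among all genes in total RNA 47.9% did not overlap.

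**Figure D4:**
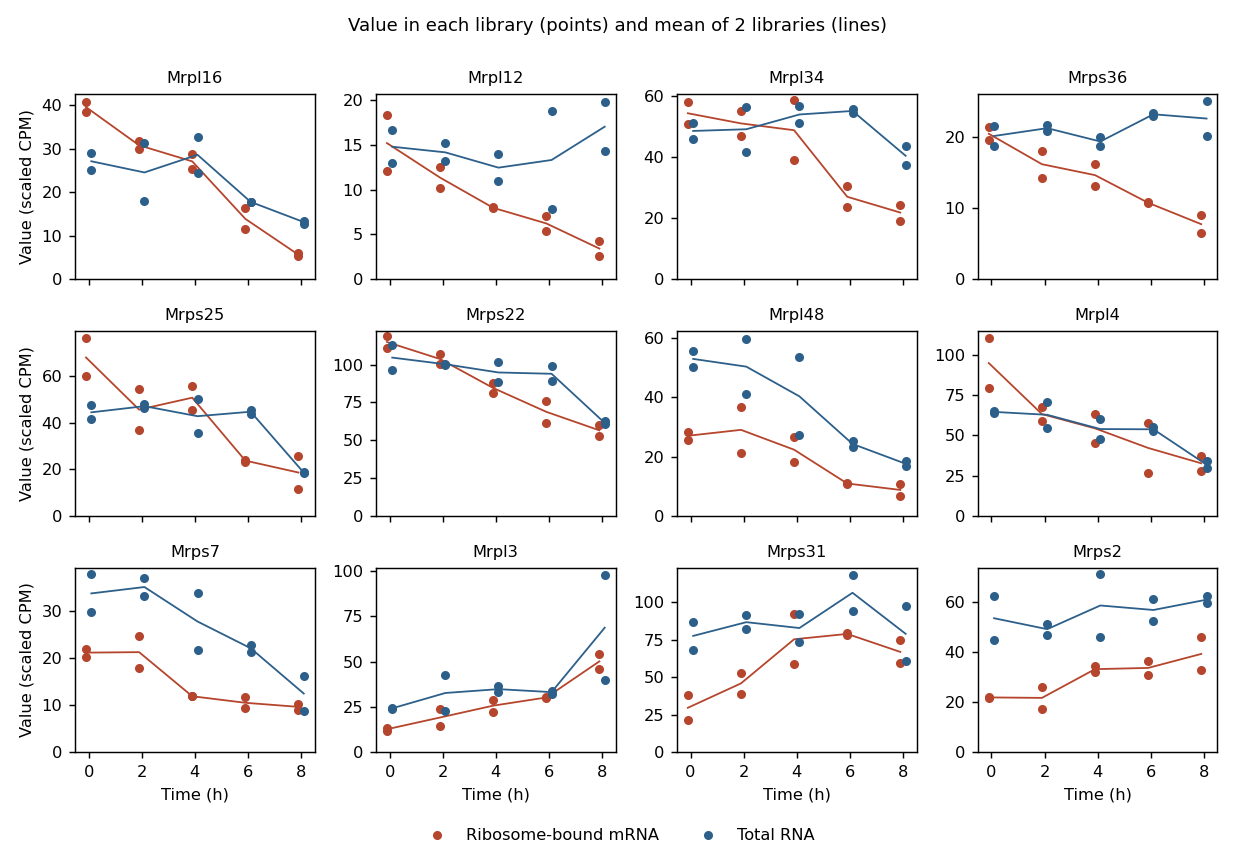
Value in scaled CPM (vertical axes, each starting at 0 and with its own scale) against time in hours for 12 genes, with 1 point a library and lines through the mean of 2 libraries, red for ribosome-bound mRNA and blue for total RNA. Mrpl12 and Mrps36 go down on ribosomes while total RNA ends at 14.3 to 25.1, Mrps22 and Mrpl4 end lower in both, and Mrpl3 and Mrps31 end higher on ribosomes.

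The change on ribosomes beyond that in total RNA was tested as the interaction of RNA kind and time for the 42 members in both tables. No member was called at 2 h or 4 h (all genes 0.0817% lower and 0.0136% higher, then 2.01% and 3.09%), with 0 and 0, then 1 lower and 2 higher, at an unadjusted p of 0.05 in limma (all genes 4.78% lower and 5.65% higher, then 8.63% and 10.4%). At 6 h, 2 were lower and none higher, against 4.37% and 7.34% of all genes. These were Mrps25 (-1.48 ± 0.43, adjusted p 0.0235) and Mrpl34 (-1.17 ± 0.36, adjusted p 0.0317). The lower count was 0 without ribosome-bound replicate 2 of 0 h, total RNA replicate 1 of 0 h or either total RNA library of 6 h. It was 1 without either ribosome-bound library of 6 h or total RNA replicate 2 of 0 h. A share of 2 in 42 is near that of all genes.

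At 8 h, 5 of 42 were lower beyond total RNA and 1 higher, against 9.43% and 11.6% of all genes. The lower share is thus near the background and is no result about the group, while the median was -0.43 against -0.03 over all genes. With the length and GC correction that median was -0.27, against -0.03. The 5 lower were 3 of 14 large-subunit proteins of bacterial type (Mrpl12, Mrpl16, Mrpl34), 1 of 10 of the mitochondrial type (Mrpl46) and Mrps36. No small-subunit protein of 17 was lower, with 1 at an unadjusted p of 0.05 (16.4% of all genes), and Mrps31 was the 1 higher.

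Mrpl12 differed most. Its total RNA was 16.6 and 12.9 at 0 h and 19.8 and 14.3 at 8 h, against the fall on ribosomes to 4.28 and 2.55 (interaction -2.06 ± 0.60, adjusted p 0.0165). Mrps36 had total RNA of 21.5 and 18.8 at 0 h and 25.1 and 20.1 at 8 h (-1.46 ± 0.45, adjusted p 0.0216). In both genes the total RNA libraries of the 2 times overlap. Mrpl16 was 29.0 and 25.2 in total RNA at 0 h and 13.5 and 12.8 at 8 h, lower but by less than on ribosomes (-1.63 ± 0.45, adjusted p 0.0113).

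Mrpl46 total RNA was 15.1 and 12.3 at 0 h and 18.9 and 7.70 at 8 h (-1.95 ± 0.69, adjusted p 0.0444). Mrpl34 total RNA was 45.9 and 51.2 at 0 h and 43.5 and 37.3 at 8 h (-1.02 ± 0.36, adjusted p 0.0412). Mrps31 total RNA was 87.1 and 68.0 at 0 h and 97.2 and 60.7 at 8 h, so the time groups overlap while the ribosome-bound libraries rose (1.19 ± 0.39, adjusted p 0.0300). The lower count was 2 without ribosome-bound replicate 1 of 0 h or replicate 2 of 8 h, 3 without ribosome-bound replicate 2 of 0 h or total RNA replicate 1 of 0 h, and 1 without total RNA replicate 2 of 0 h or replicate 1 of 8 h. The Mrps31 call was lost without ribosome-bound replicate 1 of 0 h (0.80) or of 8 h (1.03), total RNA replicate 1 of 0 h (1.01) or total RNA replicate 2 of 8 h (0.85), and the higher count was 2 without total RNA replicate 1 of 8 h. With the length and GC correction Mrpl46 (-1.64), Mrpl34 (-0.25) and Mrps31 (1.00) were not called.

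For the 6 genes lower in both kinds of RNA the interaction at 8 h was not called. It was -0.69 ± 0.43 for Mrps25, -0.50 ± 0.40 for Mrpl4 and -0.26 ± 0.25 for Mrps22 (adjusted p 0.260, 0.401 and 0.506 in limma). For Mrpl48 it was -0.01 ± 0.49, for Mrps17 0.16 ± 0.53 and for Mrps7 0.35 ± 0.48 (adjusted p 0.988, 0.868 and 0.641 in limma). The Mrps25 interaction was -1.24 and called without ribosome-bound replicate 2 of 8 h (adjusted p 0.0455). These errors leave room for differences of the size of the standard errors or more. The tables were scaled separately, so a ratio of ribosome-bound to total RNA has no absolute meaning, but its order among genes can be read. The median ratio of the 42 members was 0.905 at 0 h (0.869 over all genes), from 0.383 for Mrps31 to 2.50 for Mrps6, a small-subunit protein. At 8 h it was 0.769 (0.851 over all genes), from 0.201 for Mrpl12 to 2.49 for Mrpl44, a large-subunit protein. Mrps31 had the lowest ratio of the members at 0 h and 0.847 at 8 h. Mrps6 and Mrpl44 were chosen after their values were seen. Exons of Mrps6 overlap Slc5a3 and Gm49711 and those of Mrpl44 overlap Wdfy1, so reads behind both ratios could be shared.

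Mitoribosomal proteins that carry other symbols were measured as 3 genes on ribosomes, of which 2 fell at 8 h. Aurkaip1, of the small subunit, went from a mean of 23.6 to 7.56 (log2 change -1.52) and the GTP-binding small-subunit protein Dap3 from 67.7 to 37.0 (-0.85). The RNA-binding Ptcd3 was 0.72 and not called. Of 10 assembly factors 2 fell and 3 rose, shares near those of all genes (21.8% and 20.2%) and so no result about that list. Ngrn, needed for the large-subunit rRNA, changed by -1.55 and Tfb1m, the methyltransferase of the small-subunit rRNA, by -1.03. The GTPase Gtpbp10 changed by 1.86, Mterf3 by 1.66 and the small-subunit rRNA methyltransferase Mettl15 by 1.30.

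Of 8 mitochondrial translation factors the release factor Mtrf1 fell (-1.65) and 7 were not called. Of 6 genes of mitochondrial transcription and DNA maintenance, the RNA polymerase Polrmt fell (-1.65) and its initiation factor Tfb2m rose (1.56). Of all genes 21.8% were lower and 20.2% higher, so these counts are no result about either list. In total RNA and beyond total RNA at 8 h, no gene of these 4 lists was called in limma. At an unadjusted p of 0.05 the total RNA counts were 2 lower of 4, 1 lower and 1 higher of 12, none of 7 and 1 lower of 6 (all genes 10.8% lower and 7.88% higher). Beyond total RNA they were none of 3, 2 higher of 9, none of 6 and 1 lower of 6 (all genes 16.4% and 17.3%). Cytosolic ribosomal protein genes were taken by symbol as the parallel set. The set also holds Rps19bp1, not itself a ribosomal protein, and the pseudogene symbol Rpl10a-ps1. On ribosomes at 8 h 37 of 48 fell and 1 rose (median -1.85), against 21.8% and 20.2% of all genes. In total RNA 20 of 55 were lower and none higher (median -0.87), against 3.02% and 0.947% of all genes. Beyond total RNA 7 of 47 were lower and none higher (median -0.77), against 9.43% and 11.6% of all genes. At an unadjusted p of 0.05 the higher counts were 1 in total RNA and 0 beyond it. The difference between both families was not tested.

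The annotated transcripts of the 50 members had a median length of 1461 nt (488 to 6073), against 3213 nt over all 8103 genes matched, with a median GC content of 49.3% against 49.2%. Across the 44 ribosome-bound members, which are not independent replicates and share libraries, Pearson's r of the 8 h change was 0.14 with length and -0.26 with GC content. Their Spearman's rho was 0.18 and -0.26. With each library corrected for length and GC over all genes, the median ribosome-bound change at 8 h was -0.64 in place of -1.09. Over all genes the corrected median was -0.09. Under the correction 19 members were lower, 17 of them among the 24. The share of all genes called in that fit is not given here, so these counts have no background. The lower calls that this correction ended were Mrps24, Mrpl21, Mrpl34, Mrps6, Mrps27, Mrps7 and Mrps21. The 4 higher members under the correction included all of Mrpl3, Mrps31 and Mrps2.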

How the data were processed

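Ribosome-bound mRNA and total RNA were measured by RNA-seq in 20 libraries. Per the submitters' processing notes, Trimmomatic 0.36 and FastQC, HISAT2 on mm10, HTSeq with SAMtools, and limma and edgeR are among the tools. The authors deposited 1 table for each kind of RNA, whose values are a signal: CPM times a factor for each library. The plan had assumed plain CPM, but 10 of 20 libraries sum to more than plain CPM can; the test on log2 values was kept. All values were whole multiples of 1 step a library within 0.01 of a read, from which depth was inferred. The descriptions of the total RNA samples call them ribosome-bound; their titles and the design were followed.

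Groups came from titles, with A and B as replicates 1 and 2. The log2 of the value plus 1 was used. A minimum of 1 in 2 libraries removed no gene. The deposited values cover only part of the annotated genes, and the rule behind that listing was not examined. Genes listed because they were high at some time are exposed to falls from that time, and this was not tested. Linear models over all times were fitted on each whole table with limma 3.58.1 under R 4.3.3, moderated by empirical Bayes with a trend. The interaction of RNA kind and time used the genes that both tables list. All tests are two-sided, with Benjamini-Hochberg adjustment over all genes of a comparison at 0.05. On simulated data with known changes limma recovered 40% (ribosome-bound, 7543 genes), 49% (total RNA, 7917 genes) and 21% (interaction, 7346 genes) of log2 changes of 1, with 3 of 110, 3 of 119 and 1 of 67 calls false. In the simulation only a small part of the genes changed, and noise was independent between genes. In the real data 42.1% (ribosome-bound) and 21.0% (interaction) of all genes were called at 8 h. The simulated shares therefore do not give the recovery or the false calls of the real comparisons.

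The members and gene lists were chosen with earlier results of these data known. Named were the 8 largest calls each way on ribosomes at 8 h, the 5 largest in total RNA and in the interaction, a fixed panel, members of 1 table only, and up to 3 called genes each way of other lists. Coordinates, lengths and 3′ UTRs came from GENCODE vM21: 40 of 50 member IDs had the same version and 10 another. Poly(A) selection is not given in the sources used here.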

Additional observations from a re-analysis of the deposited data

Results flagged for a closer look

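For 7 genes the change over time differed between ribosome-bound mRNA and total RNA in the interaction test in limma, and these 8 differences merit a second look. At 6 h they were -1.48 for Mrps25 and -1.17 for Mrpl34 (log2, ribosome-bound minus total RNA). At 8 h they were -2.06 for Mrpl12, -1.95 for Mrpl46, -1.63 for Mrpl16, -1.46 for Mrps36 and -1.02 for Mrpl34, and 1.19 for Mrps31. Mrpl16 was the 1 gene called at 8 h whose adjusted p stayed under 0.05 in each fit that left out 1 library of those times.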

How the results depend on the processing

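Pseudocounts of 0.5 and 5, a mean value of at least 10, and centring of libraries left each count of called members within 1.5 times its value. With the length and GC correction, the 4 h ribosome-bound counts were 0 lower and 1 higher, and the higher counts at 8 h were 0 in total RNA and 0 beyond total RNA. Fits with no filter are the same fits, since the filter removed no gene. Whether the replicate letters pair the libraries is not known. Differences between replicates 1 and 2 correlated at -0.11 to 0.11 between groups, which gives no sign of pairing. Noise of single libraries could hide it, so pairing was not excluded. The change beyond total RNA was also fitted with libraries paired by letter, as ribosome-bound minus total RNA of the same letter and time. The counts were then 0 lower and 1 higher at 6 h and 4 lower and 0 higher at 8 h. At 8 h Mrpl34 (-1.02, adjusted p 0.0593 in limma) and Mrps31 (1.19, adjusted p 0.0881) were not called. With a replicate block in the ribosome-bound fit all 24 lower calls at 8 h were shared, while Mrps2 was not called (adjusted p 0.0516). The planned count models were not run, since the deposited values are not counts.

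With 1 library left out, a lone library is assumed to vary like the others. Lower and higher counts on ribosomes then ran from 0 to 0 and 0 to 0 at 2 h and from 6 to 8 h, from 0 to 3 and 0 to 2 at 4 h, from 4 to 7 and 1 to 2 at 6 h, and from 14 to 21 and 2 to 4 at 8 h. In total RNA they were 0 up to 6 h, then 0 to 6 and 0 to 1. Beyond total RNA they were 0 at 2 h, 0 to 2 and 0 to 1 at 4 h and at 6 h, and 1 to 7 and 0 to 2 at 8 h.

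Some changes at 8 h, none of them called, turned in sign, and the cause was not tested. Beyond total RNA, Mrpl48 was 0.13 with pseudocount 5 and 0.03 with centring. With 1 library left out it ran from -0.30 to 0.27, Mrps17 from -0.10 to 0.42, Mrps7 from -0.06 to 0.77 and Mrpl3 from -0.07 to 1.20. In total RNA, Mrps31 was 0.02 with centring and 0.13 with the length and GC correction, and Mrpl46 was 0.11 with that correction. With 1 library left out, total RNA changes ran from -0.34 to 0.33 for Mrps31, from -0.75 to 0.44 for Mrpl46, from -0.03 to 0.43 for Mrps2, from -1.23 to 0.25 for Mrpl1, from -0.04 to 0.41 for Mrpl12 and from -0.24 to 0.70 for Mrps15. The lowest values rest on few reads, such as the 7 reads of Mrpl15. The part of depth in the gaps between libraries at higher values was not tested.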
